A study of Mus musculus with 6 samples.

Results

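The NR4A receptors are a family of 3 genes, Nr4a1, Nr4a2 and Nr4a3, and the rows of the deposited count table with these symbols were taken, 3 of 24411 genes. They were followed in RNA sequencing of microglia, the resident macrophages of the brain, from C57BL/6J mice aged 8 weeks. One group carried a knockout of Mir137, the gene of the microRNA miR-137 (gKO, 3 libraries), and the other was wild type for it (gWT, 3 libraries); no treatment is named. The study's text asks how losing miR-137 alters transcription in these cells. It mentions 4 mice without tying them to libraries, and no label says whether replicates were different animals, so p-values measure only the spread between libraries, which may be technical.

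NR4A proteins are nuclear receptors that bind DNA as transcription factors and are called orphans because no classical hormone ligand is established for them. Their activity is set largely by how much of them is made: they are immediate-early genes, transcribed within minutes of signals that raise cAMP, calcium or inflammatory kinases, in large part through the factors CREB and MEF2. In macrophages, Nr4a1 (also called Nur77) is known for restraining inflammatory gene expression and for its need in patrolling monocytes, and Nr4a2 (Nurr1) has been described as a brake on inflammatory genes in microglia and is best known from dopamine neurons. Nr4a3 (NOR-1) is the family's other member and overlaps with Nr4a1 in function in several cell types.

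Nr4a1 (ENSMUSG00000023034.7) lies on chromosome 15 from 101254269 to 101274795 on the plus strand of GRCm38, Nr4a2 (ENSMUSG00000026826.13) on chromosome 2 from 57106830 to 57124003 on the minus strand, and Nr4a3 (ENSMUSG00000028341.9) on chromosome 4 from 48045153 to 48086447 on the plus strand. Their promoters are shown because cAMP response elements there are the family's textbook route of induction. Each window runs from 250 bases before to 50 bases after the gene's start in RefSeq (GRCm38.p6), is written 5′ to 3′ on the gene's strand, and has every core of a cAMP response element (CRE), TGACG on either strand, in capitals. The spans above are from GENCODE M21, whose start differs from that of RefSeq for Nr4a1 and Nr4a3. The Nr4a1 window lies inside its span, and other start sites were not searched.
Nr4a1, chr15:101266596-101266895, plus strand: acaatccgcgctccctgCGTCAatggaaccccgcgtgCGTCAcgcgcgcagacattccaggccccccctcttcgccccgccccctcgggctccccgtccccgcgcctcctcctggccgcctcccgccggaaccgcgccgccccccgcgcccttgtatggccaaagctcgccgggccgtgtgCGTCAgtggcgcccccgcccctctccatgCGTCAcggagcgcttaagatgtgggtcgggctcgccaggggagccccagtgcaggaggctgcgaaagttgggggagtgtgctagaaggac
Nr4a2, chr2:57123954-57124253, minus strand: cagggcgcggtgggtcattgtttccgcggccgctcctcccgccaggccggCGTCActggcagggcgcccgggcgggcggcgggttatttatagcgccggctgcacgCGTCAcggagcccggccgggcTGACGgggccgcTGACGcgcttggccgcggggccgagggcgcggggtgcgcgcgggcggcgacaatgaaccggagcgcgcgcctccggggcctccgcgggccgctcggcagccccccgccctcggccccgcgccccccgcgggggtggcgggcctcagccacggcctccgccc
Nr4a3, chr4:48045055-48045354, plus strand: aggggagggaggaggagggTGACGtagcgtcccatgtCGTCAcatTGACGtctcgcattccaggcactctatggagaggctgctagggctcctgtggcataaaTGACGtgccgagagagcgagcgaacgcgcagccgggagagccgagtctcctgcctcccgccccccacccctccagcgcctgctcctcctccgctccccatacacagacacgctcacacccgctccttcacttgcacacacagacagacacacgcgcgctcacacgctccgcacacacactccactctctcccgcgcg

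Each of the 3 windows held 4 CRE cores. Counted from the start site, they began at positions -233, -213, -69 and -40 in Nr4a1, at -200, -144, -123 and -111 in Nr4a2, and at -231, -213, -205 and -147 in Nr4a3. At least 1 CRE core was found in 20.8% of all 32851 promoter windows of this length, and 4 or more in 0.231% of them, which is 76 windows of 69 genes. The cut of 4 equals the number in each NR4A window, so this share is a description and not a test. A full CRE, TGACGTCA, counts as 2 CRE cores because it overlaps itself on both strands; the NR4A windows held none, against 1.79% of all windows. The NR4A windows are rich in G and C (72.3%, 81.7% and 64.7%, against a median of 52.7%), and among the 9690 windows with at least 60% G and C the share with 4 or more CRE cores was 0.557%. Of 61 windows of other nuclear receptor genes, 14 held a CRE core and 0 held 4. A CRE core was more common in windows of other genes that CREB induces (15 of 27) and of other immediate-early genes (14 of 24), and 0 of these held 4. The NBRE, AAAGGTCA, the element NR4A monomers bind, was in none of the 3 windows on either strand and in 1.51% of all windows. These matches describe letters and are not measured binding sites.

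Because the gKO group carried a knockout of Mir137, the NR4A transcripts were also searched for sites of its mature microRNA miR-137-3p. Sites of miR-137-5p, also listed for Mir137, were not searched for. The mature miR-137-3p is printed 5′ to 3′ from RefSeq with its seed, bases 2 to 8, in capitals.
mmu-miR-137-3p, chr3:118433901-118433923, plus strand: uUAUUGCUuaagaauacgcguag
The complement of the seed, AGCAATA, was absent from the 3′ untranslated regions of the longest coding transcripts of Nr4a1 (543 bases), Nr4a2 (1326 bases) and Nr4a3 (3093 bases), as was its 6-base core GCAATA. It was present in 9.58% of 21045 genes with such a region. It was also absent from the 3 promoter windows on both strands, against 2.16% of all windows holding it.

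The libraries held 14603882 to 17652977 counts. Mir137 itself had 0 counts in all 6 libraries, and since RNA sequencing of this kind captures microRNA precursors poorly, this checks nothing about the labels. The microglial genes P2ry12 (4628 ± 1370 CPM in gKO, against 4084 ± 300.4 CPM in gWT) and Tmem119 (2294 ± 66.1 CPM in gKO, against a mean of 2330 ± 174 CPM in gWT; SD, n = 3 each) were abundant in both groups, as the labelled cell type has them. Of all 14 microglial markers edgeR called 0 (2 with an unadjusted p under 0.05), though 4 were lower in gKO without overlap and 0 were higher, among them Olfml3 (1170.0 ± 216 CPM in gKO, against a mean of 1551 ± 31.1 CPM in gWT) and Fcrls (1950 ± 137 CPM in gKO, against a mean of 2412 ± 45.8 CPM in gWT). Over all 13403 genes tested, 1508 were lower in gKO without overlap and 1341 were higher. Limma-voom with sample weights called Olfml3 and Fcrls lower, against 152 of all 13403 genes. Without gKO replicate 3 edgeR called 3 markers lower and Siglech higher, where 3.82% of all genes were called lower and 3.99% higher. CPM are counts relative to library size after TMM scaling. The library of gKO replicate 3 stood apart, at 91.5 on the first principal component against -37.7 to -3.45 for the other 5, and its values fell with transcript length (Spearman rho = -0.50 across genes, which are not independent replicates, against -0.04 to 0.30 in the others). Results are therefore also given without it.

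Nr4a1 was high in every gKO library and rose about 3-fold, whereas Nr4a2 and Nr4a3 were close to the lower limit of detection in both genotypes and neither was called. Nr4a1 had 342, 307 and 309 CPM in gKO replicates 1, 2 and 3, against 100.1, 106 and 96.0 CPM in gWT replicates 1, 2 and 3. The groups were far apart: the lowest gKO library lay well above the highest gWT library, and within each genotype the libraries stayed close, with a coefficient of variation of 6.09% in gKO and 5.05% in gWT. Its mean was 319 ± 19.4 CPM in gKO, against a mean of 101 ± 5.09 CPM in gWT (SD, n = 3 each), a 3.17-fold difference (log2 fold change 1.66, SE 0.12, 95% interval 1.38 to 1.95, edgeR quasi-likelihood adjusted p = 0.00246 over all 13403 genes tested). At this threshold 0.627% of tested genes were called either way and 0.395% of tested genes were called higher, and in 21.3% the groups did not overlap. An unadjusted p under 0.05 was found for 10.9% of tested genes. By p, Nr4a1 ranked 3 of 13403, and by size of rise 13 among the 53 genes called higher.

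**Figure D1:**
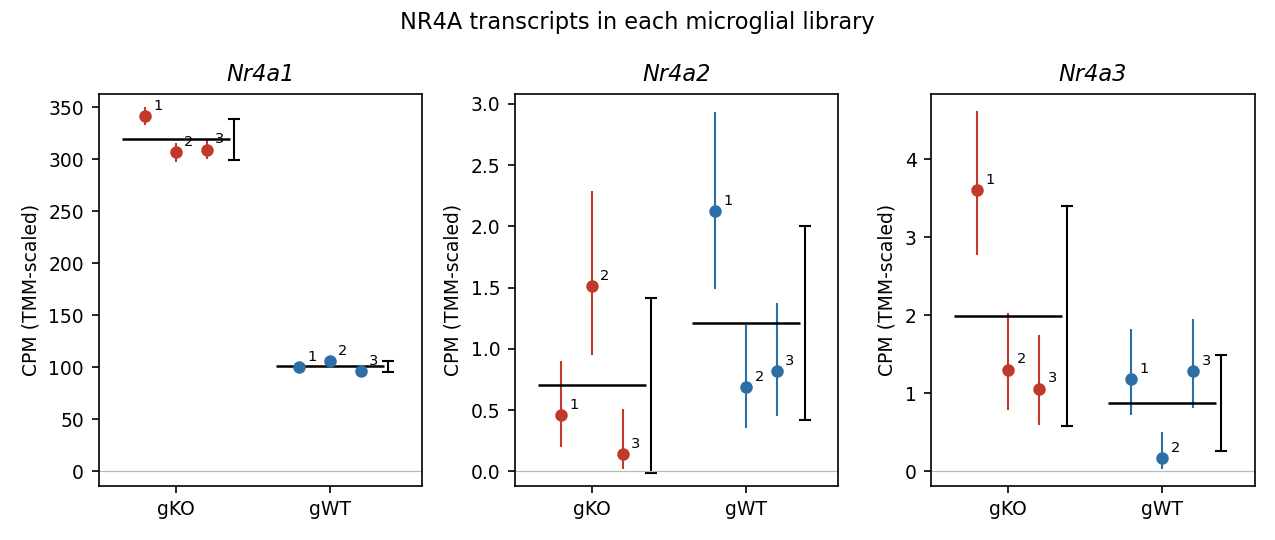
CPM of each NR4A gene in each library, gKO left of gWT in each panel. Points are libraries (numbered by replicate) with exact 95% Poisson intervals for counting error, black lines are group means, and black bars with caps are 1 SD over 3 libraries. The Nr4a1 groups are separate at 307 to 342 against 96.0 to 106 CPM, whereas the Nr4a2 and Nr4a3 libraries of the 2 genotypes overlap below 4 CPM.

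Nr4a2, the family member tied to dopamine neurons, had 8, 22 and 2 counts in gKO replicates 1, 2 and 3, or 0.458, 1.51 and 0.141 CPM. In gWT it had 36, 12 and 14 counts, or 2.12, 0.686 and 0.820 CPM. The highest gKO library (replicate 2) exceeded gWT replicates 2 and 3, so the groups overlapped. Counting error alone was wide, with exact 95% Poisson intervals of 0.0171 to 0.511 CPM in gKO replicate 3 and 1.49 to 2.94 CPM in gWT replicate 1. The log2 fold change was -0.78 (SE 1.03, 95% interval -3.14 to 1.58, edgeR adjusted p = 0.843), an interval that holds changes of several-fold in either direction, so no difference was detectable at this depth.

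Nr4a3 had 63, 19 and 15 counts in gKO, or 3.61, 1.30 and 1.06 CPM in replicates 1, 2 and 3. In gWT it had 20, 3 and 22 counts, or 1.18, 0.171 and 1.29 CPM. A single library, gKO replicate 1, stood above the rest, and gKO replicates 2 and 3 lay at the level of gWT replicates 1 and 3. The log2 fold change of 1.18 (SE 0.92, 95% interval -0.94 to 3.29, edgeR adjusted p = 0.720) was not called, and it was 0.42 without gKO replicate 1.

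Set side by side, the members' ratios to each other varied widely between libraries, and the counts of Nr4a2 and Nr4a3 behind them were low. The log2 ratio of Nr4a1 to Nr4a2 was 9.54, 7.67 and 11.10 in gKO and 5.56, 7.27 and 6.87 in gWT, groups that did not overlap, with a difference of 2.87 (exact two-sided permutation p = 0.1, the smallest that 3 libraries against 3 allow; 0.3 adjusted over 3 pairs). The log2 ratio of Nr4a1 to Nr4a3 averaged 7.54 in gKO and 7.30 in gWT (difference 0.24, exact permutation p = 0.8), and that of Nr4a2 to Nr4a3 averaged -1.89 in gKO and 0.73 in gWT (difference -2.62, exact permutation p = 0.2). None of these tests could pass 0.05 in this design, so a different response of the 3 members was not shown. In the authors' deposited table, Nr4a1 has the smallest adjusted p (4.96e-32) of the 75 genes listed as higher and 201 listed as lower, with a log2 fold change of 1.67 and a standard error of 0.13, and Nr4a2 and Nr4a3 are not among them.

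Per transcript length, Nr4a1 made up nearly all NR4A message. On the TPM scale, which divides counts by the length of the longest annotated transcript (2553, 3568 and 5720 bases), Nr4a1 had 363, 333 and 260 TPM in gKO replicates 1, 2 and 3 and 110, 109 and 100.5 TPM in the gWT replicates. Nr4a2 had 0.536 ± 0.568 TPM in gKO and 0.931 ± 0.645 TPM in gWT, and Nr4a3 had 0.914 ± 0.701 TPM in gKO and 0.420 ± 0.296 TPM in gWT (SD, n = 3 each). Nr4a1 held 99.4% to 99.8% of the summed NR4A level per gKO library and 98.0% to 99.5% per gWT library. Nr4a2 and Nr4a3 did not differ from each other beyond their spread in either genotype.

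Among all 49 nuclear receptor genes, Nr4a1 had the highest level per length in gKO. Next came Rxrb, a retinoid X receptor, at 111 ± 37.3 TPM, and Nr1h2, an oxysterol receptor, at 88.9 ± 14.8 TPM, and the Nr4a1 libraries lay above all of theirs. In gWT, Rxrb led with 124 ± 8.88 TPM, and Nr4a1 (107 ± 5.44 TPM) and Nr1h2 (106 ± 5.56 TPM) did not differ beyond their spread. Nr4a3 and Nr4a2 ranked 26 and 27 in gKO, and 32 and 25 in gWT, among receptors whose ranges overlapped theirs, such as the retinoic acid receptor Rarb (0.958 ± 0.690 TPM in gKO; SD, n = 3).

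**Figure D2:**
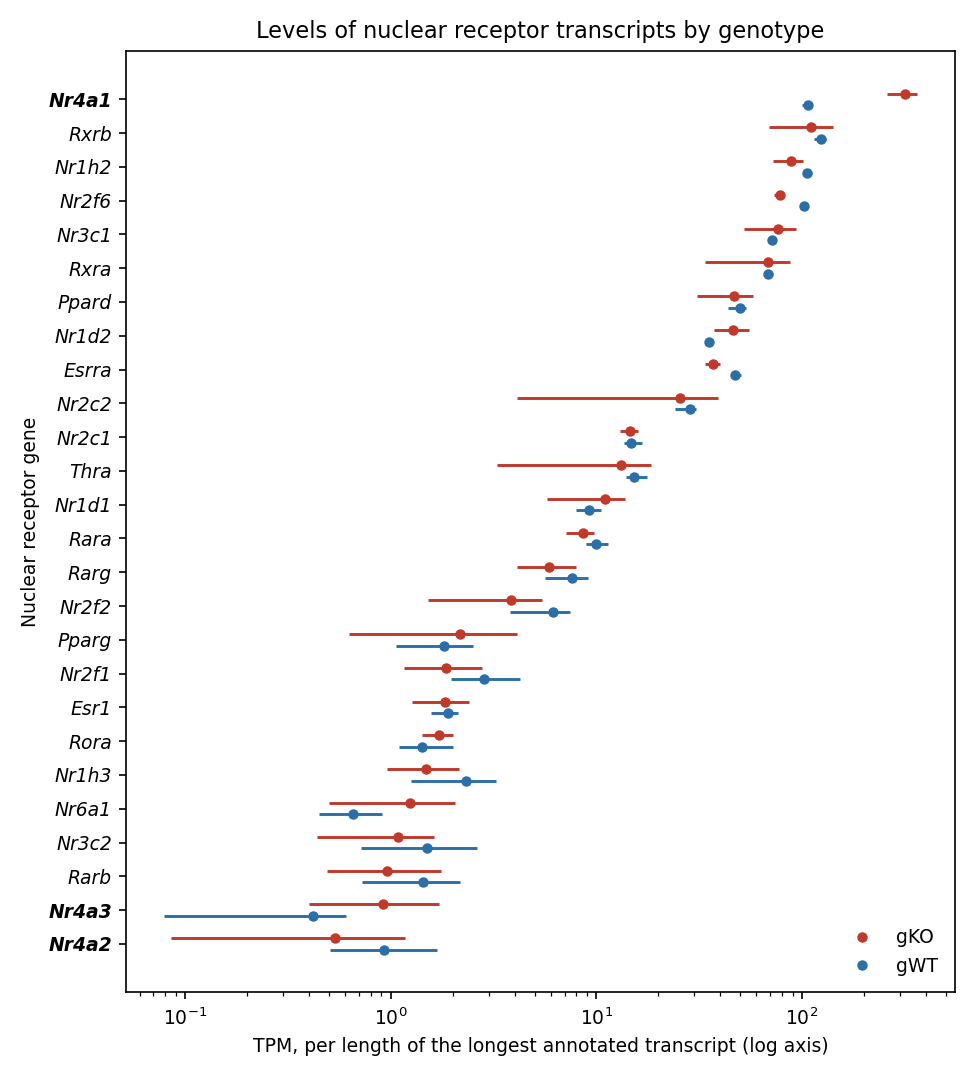
Levels of the 26 nuclear receptor genes with a count in all 6 libraries, in TPM on a log axis, ordered by the gKO mean. Points are group means, lines run from the lowest to the highest of 3 libraries, and gKO is drawn above gWT for each gene. Nr4a1 stands at the top in gKO (319 TPM) and beside Rxrb and Nr1h2 in gWT (107 TPM), whereas Nr4a2 and Nr4a3 are at the bottom.

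No nuclear receptor outside the family was called by edgeR in the comparison of all 6 libraries. Of 46 other nuclear receptor genes, 27 passed the filter on low counts and 6 had 0 counts in all libraries. EdgeR called 0 of the 27 (1 at an unadjusted p under 0.05), as did DESeq2 (34 tested) and limma-voom, while limma-voom with sample weights called Nr1d2 higher. Their median log2 fold change was -0.13, against 0.01 over all genes tested, and 9 of 27 were positive. The smallest p was that of Nr1d2, a repressor of the circadian clock, at 84.6 ± 7.58 CPM in gKO, against a mean of 60.7 ± 0.612 CPM in gWT (SD, n = 3 each), with a log2 fold change of 0.48 and SE of 0.13 (edgeR adjusted p = 0.206). Next came Nr2f6, an orphan receptor of the COUP family, with a log2 fold change of -0.29 (SE 0.13, edgeR adjusted p = 0.469). The groups did not overlap in either gene. These were the only receptors of the 27 without overlap, 1 higher and 1 lower, against 21.3% of all genes tested. Without gKO replicate 3, 3 receptors were called higher (Nr1d2, Rxra and the glucocorticoid receptor gene Nr3c1) and Nr2f6 was called lower among 32 tested, where 7.81% of all genes tested were called, 3.99% higher and 3.82% lower.

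No gene for a protein that works with NR4A receptors was called by edgeR over all 6 libraries. The list of partners and corepressors holds the retinoid X receptors that pair with Nr4a1 and Nr4a2, the CoREST components Rcor1 and Kdm1a through which Nr4a2 represses inflammatory genes, and other coregulators. EdgeR called 0 of 17 tested members (0 at an unadjusted p under 0.05), DESeq2 0 of 18, and limma-voom 0 with or without sample weights. Without gKO replicate 3 edgeR called Rxra higher, where 3.99% of all genes were called higher. The median log2 fold change was -0.03. The heterodimer partners Rxra and Rxrb had log2 fold changes of 0.03 with SE 0.25 and of -0.10 with SE 0.18, and Kdm1a, a histone demethylase, 0.12 (SE 0.13). Rcor1 had 2.12 CPM in gKO replicate 3 and at least 23.4 CPM in gKO replicates 1 and 2, against 33.5, 21.3 and 23.5 CPM in the gWT replicates, and its log2 fold change was -0.63 (SE 0.68). The smallest p values belonged to the deacetylase gene Hdac1 (log2 fold change -0.29, SE 0.14, adjusted p = 0.513 by edgeR) and to Bcl2, a survival factor that Nr4a1 can bind at mitochondria (-0.21, SE 0.19, edgeR adjusted p = 0.770).

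Of the listed regulators upstream of NR4A transcription, edgeR over all 6 libraries called none. This list leaves out AP-1 and related factors, of which Fos, Fosb, Jund and Atf3 were called higher among the immediate-early genes. Of 28 tested genes for CREB, its coactivators, MEF2 factors, serum response factor partners, class IIa deacetylases and kinases, edgeR called 0 (5 at an unadjusted p under 0.05), DESeq2 and limma-voom 0, and limma-voom with sample weights called Mef2a higher. Their median log2 fold change was -0.15. Mef2a, a MEF2 factor, had 780, 752 and 655 CPM in gKO and 549.7, 551 and 566 CPM in gWT. Its groups did not overlap, as in 21.3% of all genes tested, and the difference was not called (log2 fold change 0.39, SE 0.12, edgeR adjusted p = 0.280). Hdac7, a class IIa deacetylase that represses MEF2 targets, had 11.4, 8.78 and 3.53 CPM in gKO and 22.4, 18.1 and 16.7 CPM in gWT, again without overlap (log2 fold change -1.27, SE 0.39, edgeR adjusted p = 0.280). Creb1 (-0.16, SE 0.13) and Srf (-0.12, SE 0.17) had small fold changes on the log2 scale. Without gKO replicate 3, Mef2a and the coactivator Ep300 were called higher, and Hdac7 and the kinase Rps6ka1 lower. In that fit 3.99% of all genes were called higher and 3.82% lower.

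Several other genes that CREB induces were higher in gKO. Of 15 tested members of the list, which excludes the NR4A genes, 6 were called higher and 0 lower, namely Fos, Fosb, Egr1, Dusp1, Btg2 and Gem; the background of genes called higher was 0.395%. The median log2 fold change was 1.03, and 11 were called higher without gKO replicate 3, against 3.99% of all genes in that fit. Without any 1 gWT library edgeR called 0 genes in the whole table, and without gKO replicate 1 or 2 it called 5. Gem, a small GTPase that dampens calcium channels, had 85.5, 95.6 and 134 CPM in gKO and 23.4, 31.1 and 27.7 CPM in gWT, so every gKO library was above every gWT library (log2 fold change 1.94, SE 0.21, edgeR adjusted p = 0.0139). Dusp1, a phosphatase that switches off MAP kinases, rose by 1.24 on the log2 scale (SE 0.12, edgeR adjusted p = 0.00946) and Fosb, an AP-1 subunit, by 1.53 (SE 0.16, edgeR adjusted p = 0.0104). Crem, a CREB family member that CREB also induces, had a log2 fold change of -0.33 (SE 0.49, edgeR adjusted p = 0.863), and the phosphodiesterase gene Pde4b one of 0.05 (SE 0.18, edgeR adjusted p = 0.952).

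The broader list of immediate-early genes, which shares 9 genes with the CREB list, had 13 of 25 called higher and 0 lower, with a median log2 fold change of 0.93, against 0.395% of all genes called higher. Without gKO replicate 3, 24 were called higher, against 3.99% of all genes, and without any 1 gWT library 0 were called, as in the whole table. Among them Nfkbiz, an NF-kB cofactor, reached 187 ± 14.2 CPM in gKO, against a mean of 54.1 ± 3.98 CPM in gWT, and the phosphatase gene Dusp2 56.3 ± 12.1 CPM in gKO, against a mean of 20.3 ± 1.76 CPM in gWT (SD, n = 3 each). The 7 heat shock genes, a response to cell stress, had 0 called by edgeR (1 with an unadjusted p under 0.05), DESeq2 or limma-voom, with a median of -0.03. Without gKO replicate 3 edgeR called Hspb1 lower, where 3.82% of all genes were called lower. Whether stress on the cells differed between the groups was not tested.

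The rise of Nr4a1 was set against those of other early factors within each library. The log2 ratio of Nr4a1 to the mean of 5 FOS and JUN genes was -2.50 to -2.26 in gKO and -3.29 to -3.18 in gWT, a difference of 0.84 without overlap (exact permutation p = 0.1, the smallest possible here). These 5 genes were unlike each other, with log2 fold changes of 0.30 (Jun), 0.42 (Junb), 0.84 (Jund), 1.07 (Fos) and 1.53 (Fosb), against 1.66 for Nr4a1. The ratio to Atf3, a stress-induced AP-1 family factor, differed by 0.24 on the log2 scale, also without overlap (exact permutation p = 0.1). The ratio to the mean of 3 EGR genes was 1.43 to 2.58 in gKO and 1.62 to 1.66 in gWT, which overlapped (difference 0.47, exact permutation p = 0.4).

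**Figure D3:**
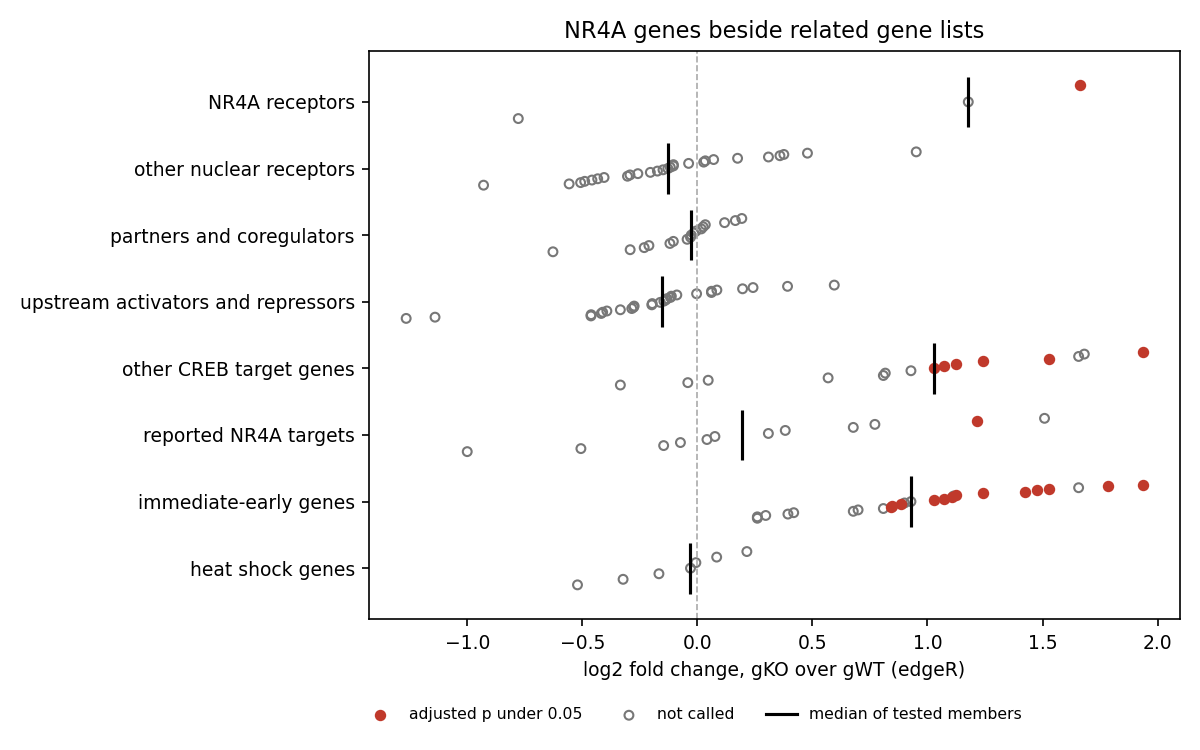
Log2 fold changes, gKO over gWT, of tested genes in the NR4A family and in 7 related lists. Each point is a gene, filled where the edgeR adjusted p was under 0.05, and the black line is the median of the tested members. Nr4a1 (1.66) lies among the filled points of the CREB target and immediate-early lists, whereas no point is filled in the lists of other nuclear receptors, partners and upstream regulators.

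Genes reported elsewhere as NR4A targets, most of them from neurons, endocrine tissue, muscle or T cells, had 1 member called. Of 21 such genes 12 were tested, 8 of them with a positive fold change, and 1 was called higher and 0 lower, against a background of 0.395% higher, with a median log2 fold change of 0.19; 6 genes, among them the dopamine transporter gene Slc6a3 and Fasl, had 0 counts in all libraries. The called gene was Nfkbia, which encodes the NF-kB inhibitor IkBa and is itself a classical NF-kB target, at 442, 480 and 530 CPM in gKO and 202, 210 and 214 CPM in gWT (log2 fold change 1.21, SE 0.13, edgeR adjusted p = 0.0104). Klf2, a transcription factor of quiescent cells, had 465, 452 and 670 CPM in gKO and 301.5, 339 and 351 CPM in gWT, with no overlap (log2 fold change 0.68, SE 0.18, adjusted p = 0.185 by edgeR), and it was called higher by DESeq2 and by limma-voom with sample weights. Without gKO replicate 3, edgeR called 3 of the 12 higher, Nfkbia, Klf2 and the pro-apoptotic gene Bcl2l11, against 3.99% of all genes. Spp1, the osteopontin gene, and Cx3cr1, the fractalkine receptor gene, had log2 fold changes of 0.04 with SE 0.22 and of -0.15 with SE 0.24.

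The genes whose pattern over the 6 libraries lay closest to Nr4a1 were Nfkbid, Atf3, Nfkbiz, Fosb and Cd83. Closeness was the root mean square, over the libraries, of the difference between 2 genes' log2 CPM after each gene's own mean was taken off, over 8851 tested genes of at least 10 CPM. Nfkbid, an atypical NF-kB inhibitor, was nearest, at 0.0561 log2 units, then Atf3 (0.147), Nfkbiz (0.148), Fosb (0.153) and Cd83, a costimulatory surface protein (0.186), against a median of 0.857. Their log2 fold changes were 1.42 to 1.79, a direction that follows from choosing genes by their likeness to Nr4a1.

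**Figure D4:**
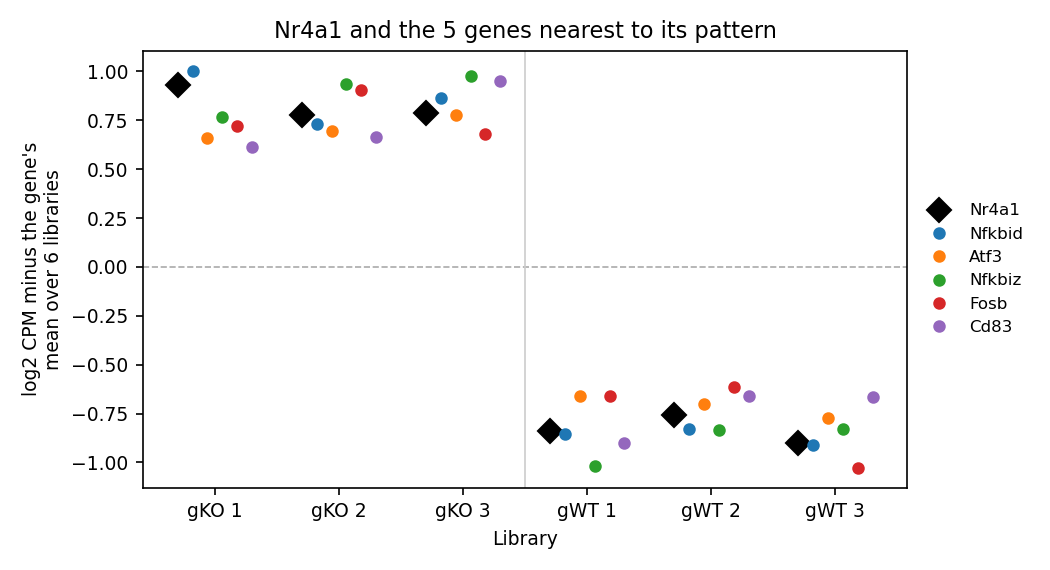
Log2 CPM minus the gene's mean over the 6 libraries for Nr4a1 (black diamonds) and the 5 genes nearest to it (coloured circles, shifted sideways for each library), with the gKO libraries left of the gWT libraries. All 6 genes sit above 0 in each gKO library and below 0 in each gWT library, as their choice by likeness to Nr4a1 fixes, and Nfkbid follows Nr4a1 within 0.0561 log2 units (root mean square).

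The genes nearest to the other members were much less close, and edgeR over all 6 libraries called none of them. For Nr4a2 they were Hspg2, Rgs5, Fgd5, Trim56 and Rest, at 0.549 to 0.581 log2 units. Each had its lowest value in gKO replicate 3, the library whose values fell with transcript length. Nr4a2 was also lowest there, so this follows from choosing genes by their likeness to it. Rgs5, a pericyte gene, had a log2 fold change of -1.19 (SE 0.48, edgeR adjusted p = 0.426) and was called lower without that library. For Nr4a3 they were Mmp8, Mlph, Cd177, Cxcr4 and Tspyl3, at 0.880 to 0.962 log2 units, of which Mmp8 and Cd177 are neutrophil genes with log2 fold changes of 1.30 (SE 0.26, edgeR adjusted p = 0.101) and 1.16 (SE 0.27, edgeR adjusted p = 0.144). Mmp8, Mlph and Cd177 were called higher by DESeq2, by limma-voom with sample weights and by edgeR without gKO replicate 3. In both sets the direction of the fold changes also follows from the choice by likeness.

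Other cells that express NR4A genes could be present, and in bulk samples fewer cells of a type and less RNA per cell cannot be told apart. Nonclassical monocytes depend on Nr4a1, and all 9 of their markers had counts, summing to 201 to 222 CPM in gKO and 197 to 236 CPM in gWT, with 0 of 8 tested members called by edgeR (3 with an unadjusted p under 0.05), DESeq2 or limma-voom, and Itgal called higher with sample weights and without gKO replicate 3. The groups overlapped in this sum. Classical monocyte markers summed to 570 to 825 CPM in gKO and 848 to 1070.4 CPM in gWT, a sum lower in gKO without overlap. Single markers went both ways. EdgeR over all 6 libraries called 2 of 10 higher (Chil3 and Hp) and 0 lower, against 0.395% of all genes called higher. Limma-voom with sample weights, and edgeR with the length trend of each library removed, also called Fn1 lower. All 11 neutrophil markers in the table had counts and summed to 913 to 1335 CPM in gKO, against 582 to 689 CPM in gWT. Of these, 2 were called higher by edgeR over all 6 libraries (Ltf and Mmp9), against 0.395% of all genes. An unadjusted p under 0.05 was found for 10 of 11, against 10.9% of all genes. DESeq2, limma-voom with sample weights and edgeR without gKO replicate 3 each called 7 of the 11 higher. Over all genes they called 179 of 14947, 261 of 13403 and 3.99% higher, in that order. The part of monocytes and neutrophils in the values of Nr4a1 and Nr4a3 was not tested. Endothelial markers (12 of 12 with counts) summed to 565 to 783 CPM in gKO and 1205 to 1546 CPM in gWT, with Cldn5 called lower by edgeR over all 6 libraries, and mural markers (10 of 10) to 110 to 149 CPM in gKO and 232 to 330 CPM in gWT, with Acta2 called lower, against a background of 0.231% called lower. DESeq2 called 5 endothelial and 3 mural markers lower, against 235 of all 14947 genes it tested. In the edgeR fit without gKO replicate 3, 11 of 12 and 5 of 10 were called lower, against 3.82% of all genes. Both sums were lower in gKO, and their part in the values of Nr4a2 was not tested. Neuron markers summed to 17.75 to 18.8 CPM in gKO and 16.1 to 24.0 CPM in gWT, with 0 called by edgeR (0 with an unadjusted p under 0.05), DESeq2 or limma-voom. Of 9 T and NK cell markers 6 had counts, with Cd3g and Ncr1 at 0, summing to 7.82 to 9.12 CPM in gKO and 8.80 to 9.66 CPM in gWT.

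The direction of Nr4a1 held in all 15 other settings and its call in 12 of them. The log2 fold change lay between 1.61 and 1.70 throughout, but the edgeR adjusted p was 0.0945, 0.0711 and 0.0731 without gWT replicates 1, 2 and 3, fits in which edgeR called 0 genes in the whole table (729 to 921 at an unadjusted p under 0.05). Nr4a1 was called without gKO replicates 1, 2 and 3, and ranked 1 of 14947 genes by p in DESeq2. Nr4a2 stayed negative and Nr4a3 positive in each setting where they were tested, never past the threshold.

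**Figure D5:**
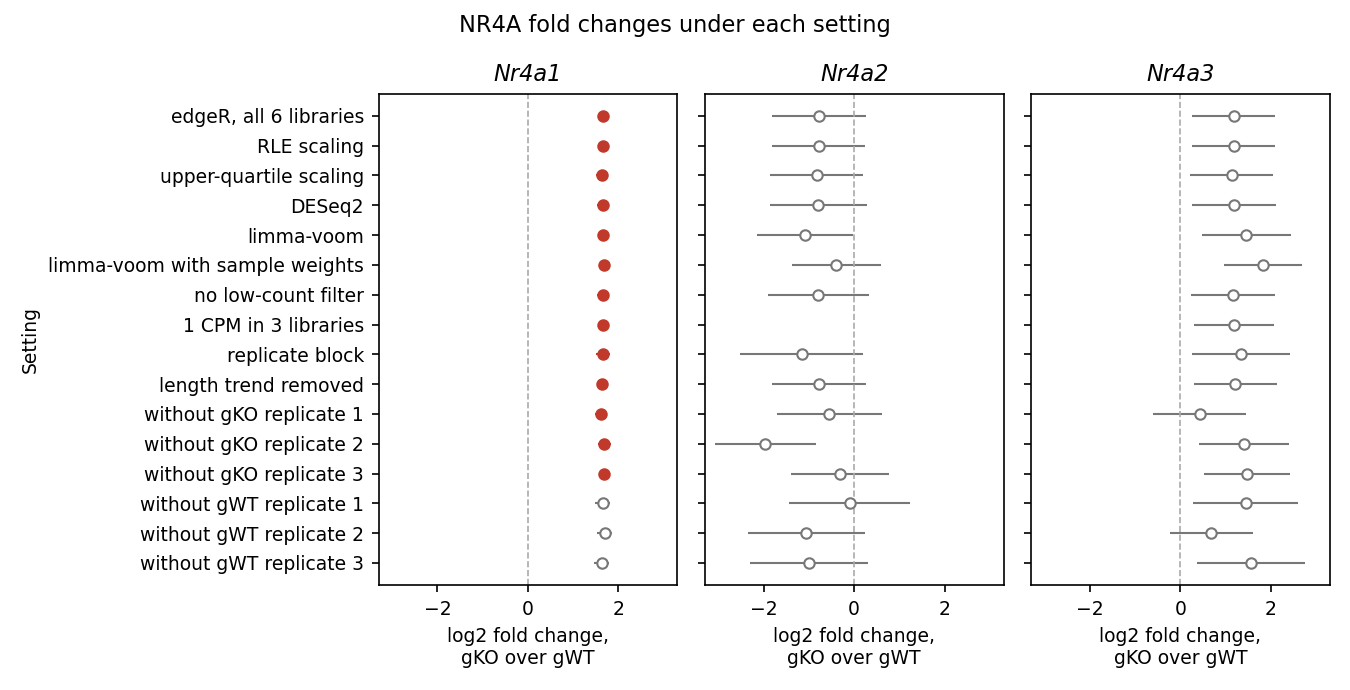
Log2 fold change, gKO over gWT, of each NR4A gene under each setting; bars are 1 SE and filled points have an adjusted p under 0.05. Nr4a1 stays between 1.61 and 1.70 and is open only where a gWT library is left out, whereas Nr4a2 (-1.97 to -0.10) and Nr4a3 (0.42 to 1.83) are open throughout; Nr4a2 has no point at 1 CPM in 3 libraries because it did not pass that filter.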

How the data were processed

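The authors deposited a table of expected counts (genes by 6 libraries) and 2 lists of genes that changed. Per the submitters' processing notes, STAR 2.7.9a, RSEM, DESeq2, GRCm38 and mm10 were used, with no role or order given; the sources used here do not name the annotation or strand setting. Per the file headers, the deposited lists hold mean normalized counts (signal), log2 fold changes (KO over WT) with standard errors, test statistics (score), and p-values, raw and adjusted. Columns were matched to samples by name.

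Counts were rounded and tested with edgeR 4.0.16 (R 4.3.3): TMM scaling, the default low-count filter, robust quasi-likelihood test on genotype, Benjamini-Hochberg over the 13403 genes tested, called at an adjusted p under 0.05. SE is the absolute log2 fold change over the square root of F. DESeq2 1.42.0 and limma 3.58.1 were alternatives. Poisson intervals cover counting error only. Of 24411 symbols, 23368 matched GENCODE M21 (GRCm38) by name and 685 by synonym, for lengths and coordinates. Within each genotype, replicates varied beyond sampling noise (chi-square per degree of freedom of 6.59 or more).

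The members, gene lists and naming rule were chosen with earlier results of these data known, and no list was tested as a set. Named were the 3 members, up to 4 called genes per list with the largest change (or 2 with the smallest p), the 5 genes nearest to each member, and 2 microglial markers. Further list genes named for their role, and the comparisons with FOS and JUN, EGR and Atf3 genes, were chosen after their values were seen.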

Additional observations from a re-analysis of the deposited data

How the results depend on the processing

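Across all genes, edgeR called 53 higher and 31 lower, 84 in all. DESeq2 called 179 higher and 235 lower (414), limma-voom with sample weights 261 and 152 (413), and edgeR with the length trend of each library removed 129 and 113 (242). With no low-count filter 47 were lower. Leaving out 1 library gave 0 to 1079 calls, 0 to 551 higher and 0 to 528 lower, the most without gKO replicate 3 and 0 without any 1 gWT library; the cause was not tested. Same-numbered libraries showed no shared deviation from their group means (correlations of 0.05, -0.05 and 0.02). This cannot exclude that the numbers pair the samples, because the gKO means included replicate 3, which stood far apart. With the replicate block 11 genes were higher and 7 lower (18), and Nr4a1 was called (log2 fold change 1.66, edgeR adjusted p = 0.0287). Nr4a1 lay between 1.61 and 1.70 with any 1 library left out, and lost its call without any 1 gWT library. Nr4a2 lay between -1.97 and -0.10 and Nr4a3 between 0.42 and 1.55. Leaving out 1 library, the differences of log2 ratios were 2.04 to 3.75 for Nr4a1 and Nr4a2, -0.30 to 1.23 for Nr4a1 and Nr4a3, and -3.67 to -1.99 for Nr4a2 and Nr4a3. Their size also depended on how low counts were handled. With 1 CPM added to each value before taking logs, they were 2.05, 1.02 and -1.03 in the same order. Without it, over all 6 libraries, they were 2.87, 0.24 and -2.62. With lengths of all annotated exons, Nr4a1 in gWT was 100.9 TPM. Low counts limit Nr4a2 and Nr4a3.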
